A study of Oryctolagus cuniculus with 6 samples.

Results

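Cytosolic ribosomal protein genes encode the protein part of the ribosome that works outside mitochondria. They were taken as the 46 entries, of 29587 in the deposited rabbit gene table, whose symbol begins with RPL or RPS and a digit, or is RPSA, RPLP0, RPLP1 or RPLP2, with the kinases named RPS6K left out. Of these entries, 27 belong to the large subunit and 19 to the small subunit, and they carry 45 symbols because RPS7 names 2 entries. PolyA RNA of tracheal mucosa was sequenced from rabbits of the New Zealand breed, 3 months of age. In the high cuff pressure group of 3 samples, a tracheal tube of 3.0 mm had been placed 13 cm deep with its inflatable cuff at 35 cmH2O for 2 h. The 3 control samples carry no description of their handling in the labels, and neither a strain beyond the breed name nor a genotype is given for either group. The labels state 3 per group without saying that each sample came from its own animal, so p-values measure the spread between these samples, which may be technical.

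A ribosome is built from a large and a small subunit, each a core of ribosomal RNA clothed in proteins that are mostly needed in equal number. The large subunit joins amino acids and carries a flexible stalk that recruits translation factors, and the small subunit reads the messenger RNA. Ribosomal protein messages are short, abundant and share a pyrimidine tract at their start, through which growth signals act on their translation. Because every cell makes them, their share of a tissue library follows both the cell types present and how actively those cells make ribosomes, and in whole mucosa fewer cells of a type and less RNA per cell cannot be told apart.

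The 46 entries covered 40 of the 80 canonical cytosolic ribosomal protein names, 23 of 47 for the large subunit and 17 of 33 for the small subunit. The other 5 symbols were paralogues, namely RPL3L, RPL7L1, RPL10L, RPL26L1 and RPS27L. A further 57 entries without such a symbol were annotated in the deposited table with a cytosolic ribosomal protein name, and together the 2 kinds of entry spanned 72 protein families. On the genome build of the deposited table (not given in the sources used here), 31 of the 46 lay on 17 chromosomes and 15 on unplaced scaffolds. After the filter on low counts 41 were tested, 23 of the large and 18 of the small subunit. RPL39 and RPL10L had 0 counts in every library, which allows up to 0.0412 CPM over the 6 libraries for reads assigned to these entries. CPM are counts per 1000000 of a library size scaled by trimmed mean of M-values (TMM). RPS27L, RPL3L and RPL34 stayed below the filter.

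Library totals ranged from 10501734 to 14415754 counts. Mitochondrially encoded genes held 27.8% to 30.6% of counts in the high cuff pressure libraries and 5.28% to 11.5% in the control libraries. The labels call the material epithelial cells, and 9 of 11 epithelial markers had an entry, with a summed level of 3665 to 23384 CPM in the high cuff pressure libraries and 5658 to 22996 CPM in the controls. Most of that sum was BPIFA1, a secreted protein of the airway surface, singled out after its values were seen. It was at 1687 CPM in the first high cuff pressure library and between 3390 and 20374 CPM in the other libraries. Without it the sums were 1979 to 4206 CPM against 1801 to 2622 CPM. High cuff pressure replicate 1 stood apart from the other 5 libraries, with a smooth muscle sum of 417 CPM against 3553 to 8015 CPM elsewhere (5 of 7 markers), the lowest BPIFA1 and the highest neutrophil sum. The neutrophil sum (6 of 7 markers) was 637 to 2517 CPM in the high cuff pressure libraries and 3.99 to 21.3 CPM in the controls. Markers of dividing cells (9 of 9) summed to 286 to 973 CPM against 86.6 to 108 CPM. Macrophage markers (7 of 7) summed to 197 to 218 CPM against 60.9 to 125 CPM. Of these, 4 had log2 fold changes above 0 and 3 below 0, with overlapping groups, namely C1QA (-1.05), C1QB (-0.93) and C1QC (-0.80). Markers of B and plasma cells (5 of 6) summed to 107 to 222 CPM against 478 to 1210 CPM. No marker with an entry was at 0 in all libraries.

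Ribosomal protein genes took the largest share of counts in high cuff pressure replicates 2 and 3, and the smallest in high cuff pressure replicate 1. Their share was 1.14%, 2.19% and 1.93% in high cuff pressure replicates 1, 2 and 3, and 1.70%, 1.42% and 1.299% in control replicates 1, 2 and 3. The group means of 1.75% ± 0.547 and 1.47% ± 0.207 (SD, n = 3 each) differed by less than the spread of the high cuff pressure libraries, and the difference of 0.279 percentage points became 0.059 with high cuff pressure replicate 2 left out and 0.585 with replicate 1 left out. With mitochondrially encoded genes left out of the total, the shares became 1.64%, 3.04% and 2.68% against 1.92%, 1.5% and 1.40%, with means of 2.45% ± 0.724 and 1.61% ± 0.277 (SD, n = 3 each). This difference of 0.844 percentage points was larger than either SD, and high cuff pressure replicate 1 moved from the last place to between control replicates 1 and 2. The groups overlapped on both scales. The entries known only by their annotation gave 0.802%, 1.41% and 1.29% of all counts against 1.25%, 0.863% and 0.947%, with high cuff pressure replicate 1 again at the bottom.

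**Figure D1:**
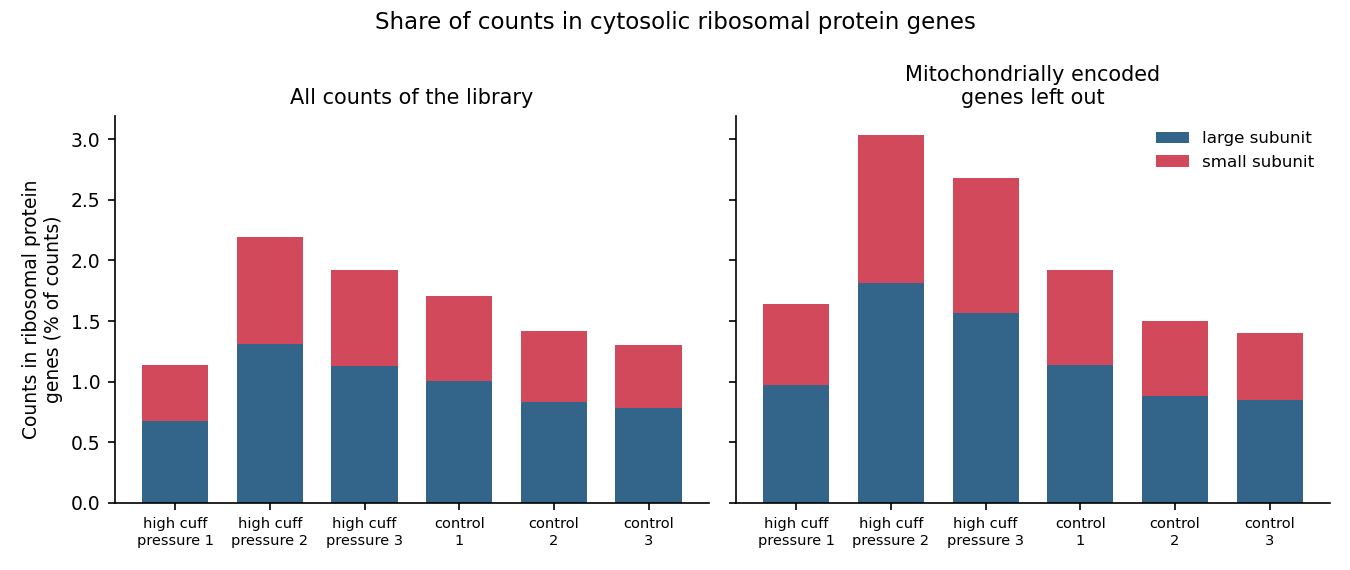
Share of each library's counts in ribosomal protein genes (y axis, percent), stacked by subunit for the 6 libraries on the x axis; the left panel uses all counts and the right panel leaves out mitochondrially encoded genes. High cuff pressure replicate 2 is highest in both panels, at 2.19% and 3.04%, and high cuff pressure replicate 1 is lowest on the left, at 1.14%.

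Transcripts of the large and the small subunit kept nearly the same proportion in every library. Counts of large subunit entries were 1.46, 1.49 and 1.42 times those of small subunit entries in high cuff pressure replicates 1 to 3, and 1.44, 1.42 and 1.53 times in control replicates 1 to 3. The means of 1.46 ± 0.0384 and 1.46 ± 0.0562 (SD, n = 3 each) differed by less than either spread. Both subunits had the same order of libraries by share of all counts, and the proportion did not separate the groups.

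Gene by gene, the highest library was mostly the same, while the lowest varied. Relative to the mean of the control libraries, the median log2 CPM of the 41 tested genes was -0.04, 1.02 and 0.68 in high cuff pressure replicates 1, 2 and 3, and 0.37, -0.13 and -0.24 in control replicates 1, 2 and 3. High cuff pressure replicate 2 was the highest library for 32 genes, replicate 3 for 7 and control replicate 1 for 2. The lowest was control replicate 3 for 18 genes, control replicate 2 for 12, high cuff pressure replicate 1 for 10 and control replicate 1 for 1. High cuff pressure replicate 3 exceeded replicate 1 in 41 of 41 genes. High cuff pressure replicates 2 and 3 exceeded all controls in 38 and 37 genes, and replicate 1 in 12, while it lay below control replicate 1 in 29. Control replicate 1 exceeded the other controls in 37 genes. These counts describe libraries, since genes of a library share its cell makeup and depth. The library that stood apart in its smooth muscle and neutrophil markers was also the low one of its group here, and the part of those differences in this order was not tested.

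**Figure D2:**
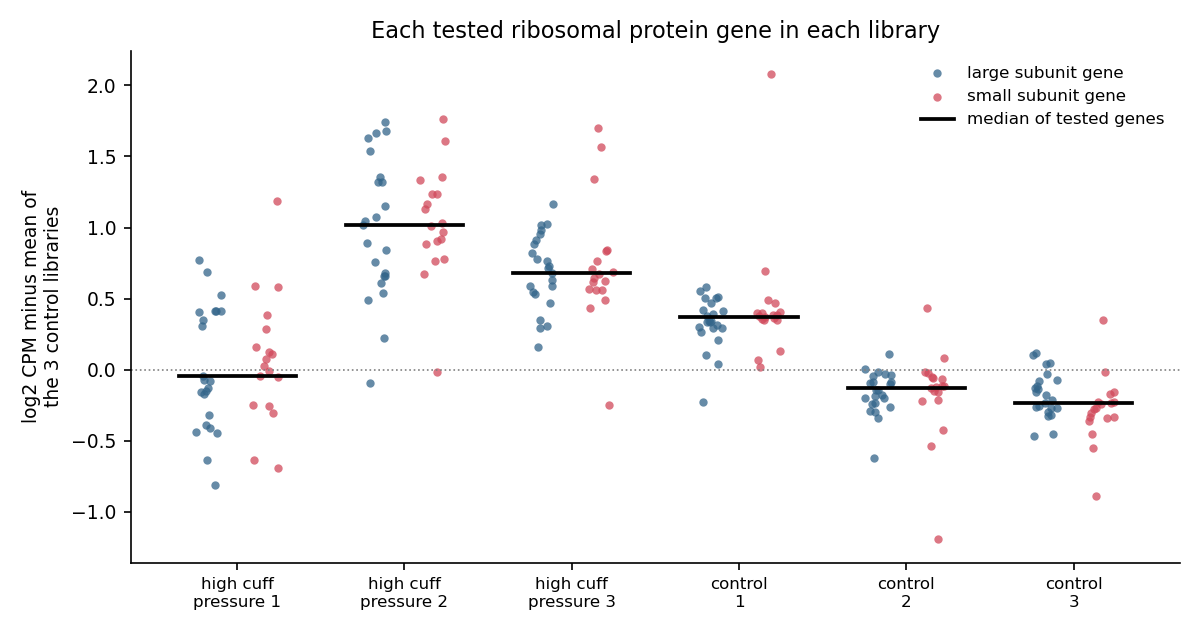
Each tested ribosomal protein gene as a point, by library (x axis) and log2 CPM minus the mean of the 3 control libraries (y axis), with large and small subunit genes in separate colours and black lines at the median of the 41 genes. The medians are -0.04, 1.02 and 0.68 in the high cuff pressure libraries and 0.37, -0.13 and -0.24 in the controls, and high cuff pressure replicate 1 lies among the controls.

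The comparison of the groups asks whether these transcripts differ in mucosa under an over-inflated cuff. No ribosomal protein gene passed the test in either direction, although nearly all had a fold change above 0. With edgeR's quasi-likelihood test and Benjamini-Hochberg adjustment over 13724 genes, 0 of 41 were higher and 0 lower at an adjusted p under 0.05, against 3.67% of all tested genes higher and 1.62% lower (5.28% in all). The smallest adjusted p was 0.074, for RPL38. Unadjusted, 13 of 41 (31.7%) had p under 0.05, all with higher levels under high cuff pressure, against 15.6% of all tested genes higher. Fold changes were above 0 for 39 of 41 (95.1%), against 49.5% of all genes. Their median was 0.59 on the log2 scale, with a range from -1.142 to 1.799, and the median of all tested genes was -0.01. The large subunit had a median of 0.57 over 23 genes and the small subunit 0.63 over 18, and the median standard error of a single gene was 0.36. The 49 tested entries known only by annotation had a median of 0.63, with 45 above 0, 14 at an unadjusted p under 0.05 and 0 past the threshold.

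Members passed the threshold under DESeq2 and without the library that stood apart, and under no other alternative run, limma-voom and other scalings included. DESeq2 placed 9 of 43 members past the threshold as higher, against 9.27% of all genes it tested. Among them were RPL10A, RPL28, RPL38, RPL8, RPLP0, RPS12, RPS21 and RPS27L. Without high cuff pressure replicate 1, edgeR called 8 of 42 higher, against 9.68% of genes: RPL10A, RPL28, RPL38, RPL8, RPLP0, RPS12, RPS16 and RPS21. The 2 sets shared 7 genes. In the authors' deposited table, 2 members have a q-value under 0.05, RPL38 (0.0412) and RPS27L (0.0445). The share of all genes with such a q-value was not computed, so this count cannot be called many or few. The authors' deposited table of pathways counts 2 changed genes of 158 in the KEGG ribosome pathway, with a rich factor of 0.171 and a p-value of 1.

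**Figure D3:**
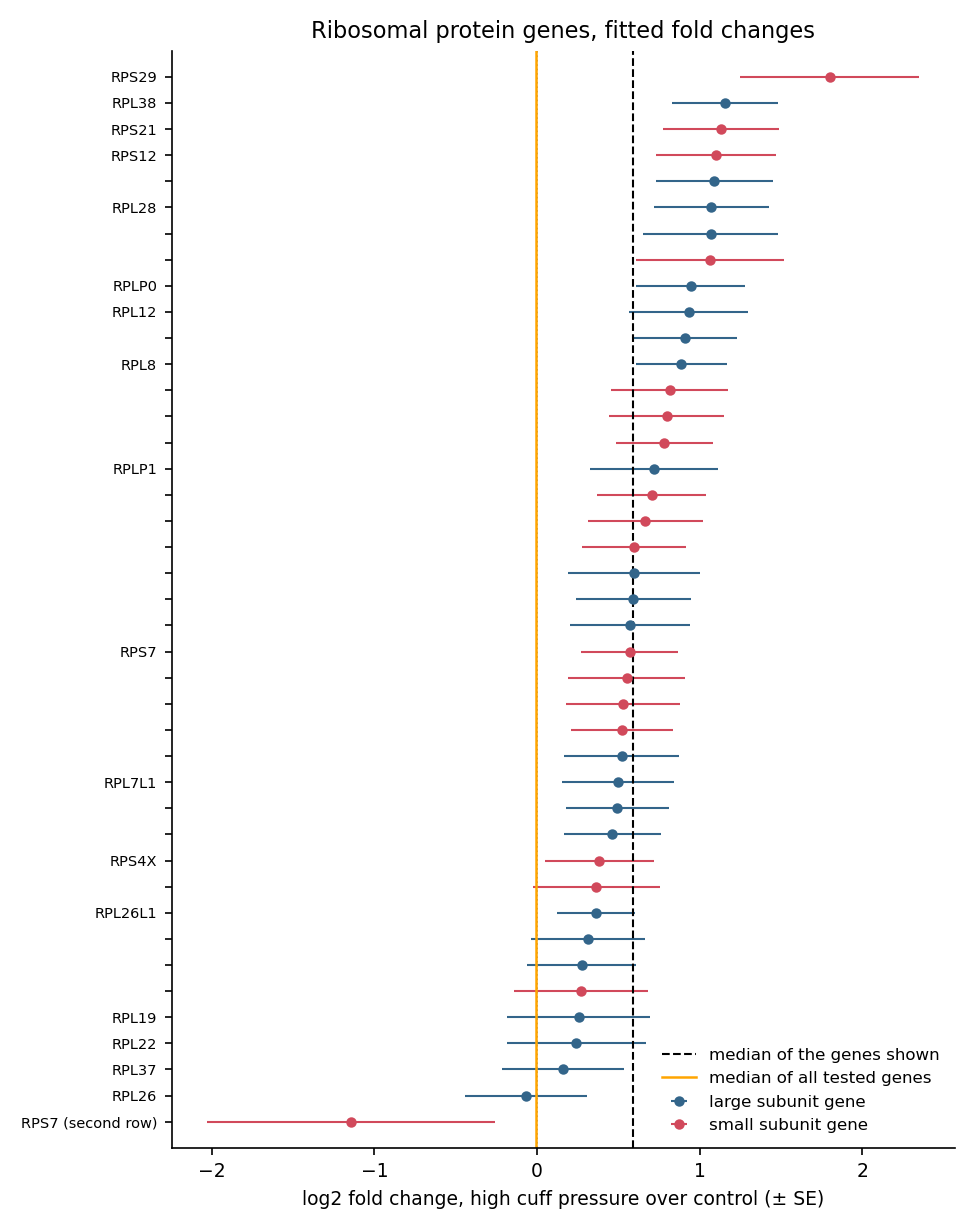
Fitted log2 fold change of each of the 41 tested genes (x axis, high cuff pressure over control, bars ± SE), ordered by size on the y axis, with some of the genes labelled, and coloured by subunit, with the median of these genes (0.59, dashed) and of all tested genes (-0.01). 39 points lie above 0, and RPS7 on chromosome 8 is the lowest at -1.14.

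Of the 41 tested genes, 11 (26.8%) had groups that did not overlap, all with the high cuff pressure libraries above, against 18.6% of all tested genes in that direction, and 0 lay entirely below. Among them were RPL10A, RPL12, RPL28, RPL38, RPL8, RPLP0, RPS12, RPS14, RPS21 and RPS29; those outside the naming rule are named after their values were seen. The stalk of the large subunit is represented here by RPLP0, its anchor, RPLP1, one of the acidic proteins it holds, and RPL12, at its base. RPLP0 stood at 549, 1099 and 874 CPM in high cuff pressure replicates 1 to 3 and at 546, 405 and 360 CPM in control replicates 1 to 3. High cuff pressure replicate 1 and control replicate 1 were thus level, and the separation of the groups rested on a difference of a few CPM. The fold change of RPLP0 was 0.94 ± 0.34 (SE, log2) with an adjusted p of 0.12 by edgeR. RPLP1 measured 737, 2018 and 1247 CPM against 933, 760 and 738 CPM, so that its high cuff pressure replicate 1 was the lowest of all libraries. RPL12 measured 501, 1098 and 606 CPM against 492, 307 and 358 CPM.

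Among the other large subunit genes, RPL38, a small surface protein known from mice for its part in the translation of Hox messages, had the smallest p. Its gene model is a single block of 213 bp on chromosome 5, from 1630617 to 1630829 on the plus strand. It gave 182, 341 and 207 CPM in high cuff pressure replicates 1 to 3 and 148, 92.5 and 88.0 CPM in control replicates 1 to 3. The groups did not overlap, and the difference of 1.15 ± 0.33 (SE, log2) had an adjusted p of 0.074 by edgeR. RPL28 and RPL8 gave fold changes of 1.07 ± 0.35 and 0.89 ± 0.28 (SE, log2). The model of RPL28 is also a single block, of 414 bp. RPL8, which lies close to the site where peptide bonds form, had the longest model of all members.

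In the small subunit, RPS21 and RPS12 had the largest fold changes among abundant genes. RPS21 measured 132, 299 and 157 CPM in high cuff pressure replicates 1 to 3 and 116, 83.9 and 69.2 CPM in the controls (1.13 ± 0.36 SE, adjusted p = 0.092 by edgeR). RPS12 measured 528, 792 and 1043 CPM against 487, 374 and 240 CPM (1.10 ± 0.37 SE, adjusted p = 0.10 by edgeR). RPS12 was one of the 7 genes that were highest in high cuff pressure replicate 3.

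RPS29 had the largest fold change of the 41 tested members, on very few counts. It had 20, 13 and 40 counts in high cuff pressure replicates 1 to 3 and 7, 15 and 4 in control replicates 1 to 3. On the CPM scale these were 1.97, 1.53 and 3.03 against 0.598, 0.965 and 0.292, with no overlap. The fit gave 1.799 ± 0.55 (SE, log2) and an adjusted p of 0.085 by edgeR. The ratio of its summed counts, scaled for library size, was 3.61 with a 95% interval from 2.28 to 5.89 that covers counting error only.

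The 5 lowest fold changes belonged to RPS7 on chromosome 8 and to 4 large subunit genes. RPL26, which sits near the tunnel through which the new chain leaves, measured 254, 519 and 544 CPM in high cuff pressure replicates 1 to 3 and 636, 391 and 354 CPM in the controls. Its fold change of -0.07 ± 0.38 (SE, log2, adjusted p = 0.92 by edgeR) was smaller than its error. It became 0.21 with high cuff pressure replicate 1 left out and 0.24 with control replicate 1 left out. RPL37, RPL22 and RPL19 had fold changes of 0.16 ± 0.38, 0.24 ± 0.43 and 0.26 ± 0.44. RPL22, an RNA-binding protein with known roles outside the ribosome, measured 13.5, 33.5 and 20.0 CPM against 26.9, 11.4 and 18.4 CPM. All 3 turned below 0 when libraries were scaled by totals alone, where the median of all genes was itself -0.40.

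The 2 entries of RPS7, a small subunit protein, had fold changes of opposite sign. The entry on scaffold GL018721, with a model of 3103 bp, measured 395, 762 and 574 CPM in high cuff pressure replicates 1 to 3 and 424, 359 and 384 CPM in the controls, a difference of 0.57 ± 0.30 (SE, log2). The entry on chromosome 8, from 75913187 to 75913771 on the minus strand, is a single block of 585 bp. It held 37, 50 and 65 counts against 313, 36 and 41, so that control replicate 1 alone was high. Its fold change of -1.14 ± 0.89 became 0.86 without control replicate 1. Reads of near-identical copies cannot be assigned with certainty, and the labels do not say whether counting used the strand.

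Several entries with a symbol held only a small part of the reads of their protein. RPL19, at 591 bp on chromosome 15 a single block, had 12 to 32 counts per library and 1.14% of the counts of all entries annotated as this protein. The corresponding share was 1.88% for RPL32, 2.75% for RPS27A, which is made as a fusion with ubiquitin, 9.70% for RPS14 and 10.8% for RPL34. For RPL23, RPL27, RPL10 and RPS4X it was 74.4%, 76.9%, 83.2% and 62.5%. When the entries of a protein were summed before the fit, the fold change of RPL19 became 0.47 ± 0.29 (SE, log2), that of RPL32 0.79 ± 0.35 and that of RPS14 0.54 ± 0.32. After summing, 0 of 41 families with a member passed the threshold by edgeR, 12 had an unadjusted p under 0.05, and their median was 0.60. Over all 13703 genes and families of that fit, 729 passed, 506 of them higher. In the main fit, 15.6% of all tested genes were higher and 13.6% lower at an unadjusted p under 0.05.

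Gene models of the members were short and their levels high. Length was derived from the ratio of count to FPKM (a count scaled by model length and library total), and the median over the 44 members with counts was 614 bp, from 213 bp for RPL38 to 4774 bp for RPL8, against 2137 bp over all tested genes. Their median FPKM over the 6 libraries was 409, against 9.64 over all tested genes, and 32 members reached at least 100 FPKM. Among the highest were RPLP1 (1992 FPKM), RPS12 (1076) and RPL10 (1009). RPL10 is the protein that completes the large subunit late in its assembly. The lowest above 0 were RPL3L (0.231 FPKM), RPL34 (1.39), RPS27L (2.69), RPL19 (3.30) and RPS29 (3.79).

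Model length and level were almost unrelated across members. Spearman's rho was -0.05 between length and FPKM and 0.44 between length and counts (n = 44 entries, which share libraries). Of these entries, 11 (25%) had a model equal in length to their span on the genome, that is a single exon, against 13.6% of all entries with counts. Spliced ribosomal protein genes have many processed, intronless copies in mammalian genomes. The single-exon entries had a median of 397 FPKM and the others 422 FPKM. Their fold changes had medians of 0.55 (9 tested) and 0.59 (32 tested).

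**Figure D4:**
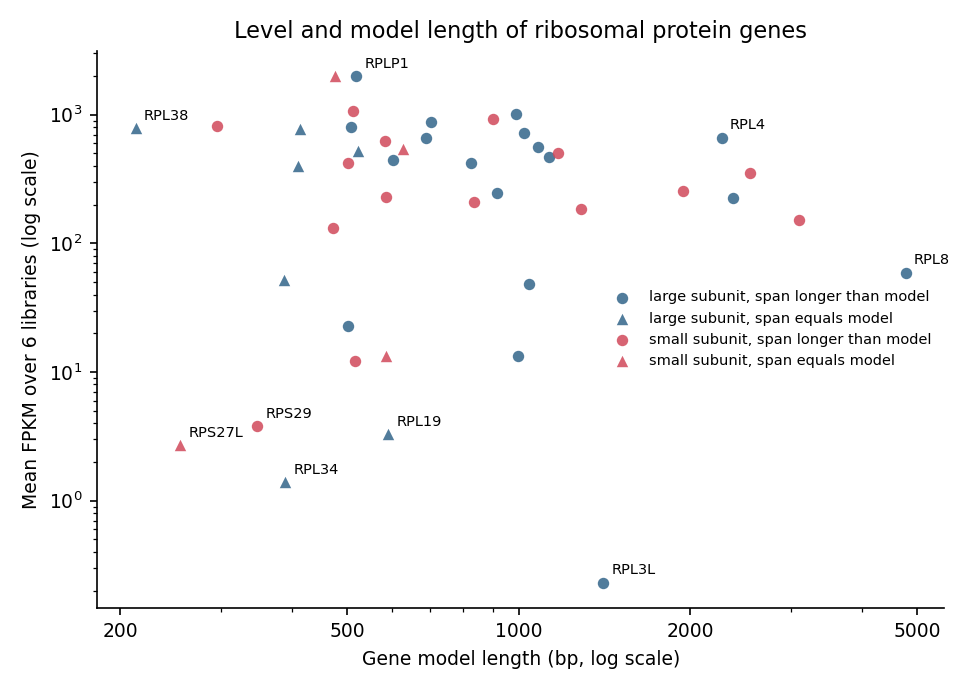
Mean FPKM over the 6 libraries (y axis, log scale) against gene model length (x axis, bp, log scale) for the 44 members with counts, coloured by subunit, with triangles for models as long as their genomic span. Most points lie between 100 and 2000 FPKM at any length, and RPL3L, RPL34, RPS27L, RPL19 and RPS29 lie far below.

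Length also went with the fold changes of all genes, so members are set beside genes of like length. Tested genes of up to 1000 bp had a median log2 fold change of 0.24, those over 1000 and up to 2000 bp 0.03, those over 2000 and up to 4000 bp -0.07, and longer ones -0.16. The 29 members of up to 1000 bp had a median of 0.60, the 7 in the second class 0.57, the 4 in the third 0.54, and RPL8, the 1 above 4000 bp, 0.89. With the trend over length removed in each library, the median of the members was 0.44 against 0.02 for all genes, and 37 of 41 were above 0. Scaled by library totals alone, the medians were 0.19 and -0.40, 30 of 41 members were above 0, and 389 of 1630 calls over all genes were higher rather than 503 of 725.

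**Figure D5:**
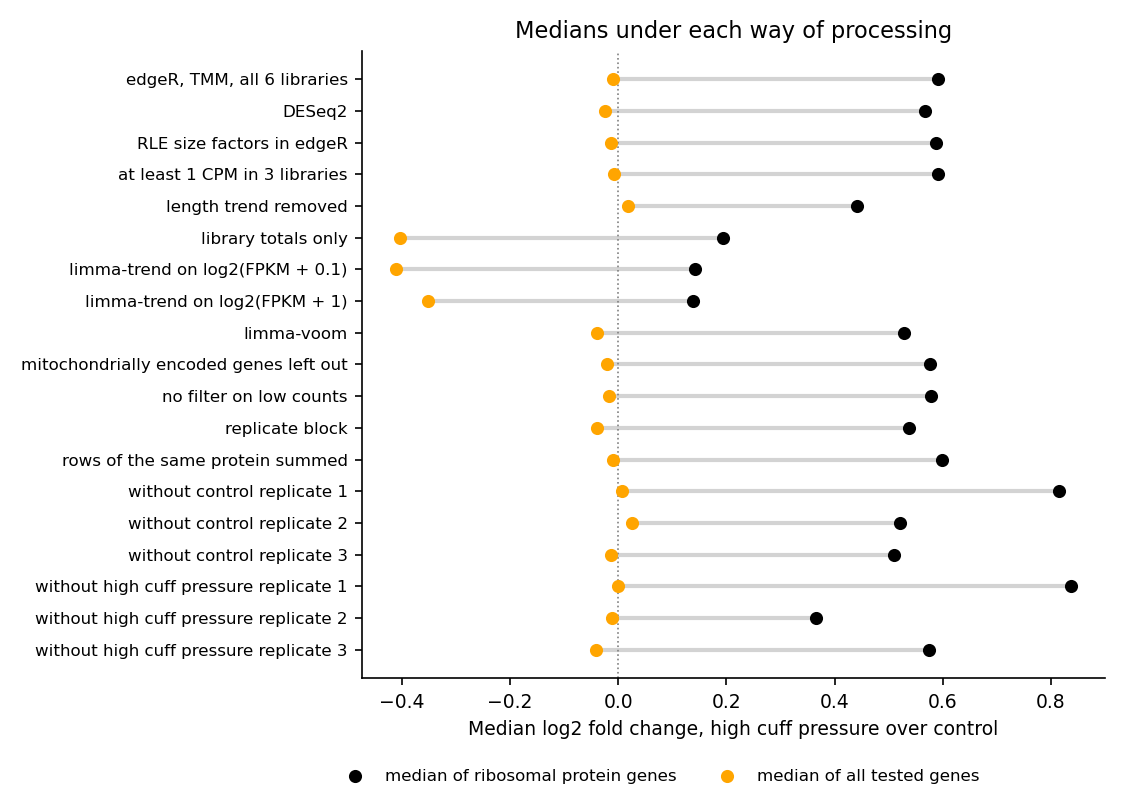
Median log2 fold change of the ribosomal protein genes (black) and of all tested genes (orange) on the x axis, for each way of processing on the y axis. The black points lie to the right of the orange ones in every line, from 0.37 without high cuff pressure replicate 2 to 0.84 without high cuff pressure replicate 1 when a library is left out.

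Among the paralogues, RPL26L1 was the only one whose parent gene could be compared with it within libraries. RPL26L1 is a near twin of RPL26. It made up 14.3%, 10.8% and 10.98% of the counts of the pair in high cuff pressure replicates 1 to 3 and 6.73%, 9.33% and 11.9% in control replicates 1 to 3. The groups overlapped, with control replicate 3 above high cuff pressure replicates 2 and 3. The log2 ratio was 0.44 higher under high cuff pressure (exact permutation test, two-sided p = 0.30, 1 pair tested, so the adjusted p is the same, and 3 against 3 allows no p below 0.10). RPL7L1, a nucleolar relative of RPL7 that helps build ribosomes, measured 13.8, 10.4 and 22.9 CPM against 9.40, 11.97 and 12.03 CPM, a difference of 0.50 ± 0.35 (SE, log2) that became 0.12 with high cuff pressure replicate 3 left out. RPL3L, the form of RPL3 found in heart and skeletal muscle, had 2, 5 and 3 counts against 6, 5 and 2. RPL10L, the form of RPL10 found in testis, had 0. RPL39, a canonical ribosomal protein and parent of another testis form, also had 0. Its entry was the only one annotated as this protein. Whether its reads were assigned elsewhere or left out was not tested. RPS4X, the form of RPS4 on the X chromosome, measured 430, 879 and 718 CPM against 651, 470 and 436 CPM (0.38 ± 0.34 SE, log2).

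RPS27L was seen in essentially a single library. This relative of RPS27 is a known target of p53, and its entry here is a single block of 255 bp on chromosome 2, from 56640242 to 56640496 on the minus strand. It had 43 counts in high cuff pressure replicate 1, 1 in each of replicates 2 and 3, and 1, 1 and 0 in the controls. The ratio of the groups, scaled for library size, was 29.0 with a 95% counting interval from 7.56 to 246, and without high cuff pressure replicate 1 it was 1.89 with an interval from 0.137 to 26.1. Other entries with the same orthology name held nearly all reads, of which this one had 0.114%. Of its 47 counts over all libraries, 43 were in the library that stood apart, and so DESeq2's call and the q-value in the authors' deposited table cover a gene seen mainly there. RPL34 had 5, 5 and 16 counts against 14, 0 and 0.

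Factors that assemble ribosomes, without being part of them, held 6 genes that rose. Of 56 tested ribosome biogenesis factors, 6 rose and 0 fell by edgeR at an adjusted p under 0.05, against 3.67% higher and 1.62% lower over all tested genes. At an unadjusted p under 0.05, 21 were higher and 3 lower, against 15.6% and 13.6% of all tested genes. The median log2 fold change was 0.37, beside -0.01 for all tested genes. With library totals alone it was -0.02, beside -0.40 for all tested genes. The high cuff pressure libraries lay entirely above the controls for 24 of them and entirely below for 5, against 18.6% and 18.7% of all genes. EIF6, which keeps the new large subunit from joining the small one too early, measured 133, 158 and 146 CPM in high cuff pressure replicates 1 to 3 and 68.8, 57.4 and 61.5 CPM in the controls (1.22 ± 0.19 SE, adjusted p = 0.023 by edgeR). EMG1, a methyltransferase of small subunit RNA, measured 42.8, 53.9 and 55.7 CPM against 19.5, 23.0 and 19.2 CPM (1.31 ± 0.22 SE, adjusted p = 0.029 by edgeR). BYSL, needed to mature the small subunit, measured 29.7, 46.0 and 30.7 CPM against 12.2, 14.5 and 10.9 CPM (1.497 ± 0.27 SE, adjusted p = 0.033 by edgeR). In these genes high cuff pressure replicate 1 lay with its group, above every control, as it did in 12 of the 41 ribosomal protein genes. The summed markers of dividing cells, neutrophils, macrophages, and B and plasma cells, given above, moved with the same groups. Not every macrophage marker did, and the part of these markers in the calls was not tested.

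The other lists around translation gave 1 call. Over all tested genes, 3.67% were higher and 1.62% lower at an adjusted p under 0.05 by edgeR. At an unadjusted p under 0.05, 15.6% were higher and 13.6% lower. EIF4EBP1, the inhibitor of cap-dependent initiation that mTORC1 switches off, was the 1 of 18 genes of mTORC1 and MYC control that rose, at 21.7, 44.3 and 29.5 CPM against 13.8, 8.49 and 9.84 CPM (1.57 ± 0.34 SE, adjusted p = 0.047 by edgeR). The median of that list was 0.10. None of 24 initiation factors passed by edgeR, with 5 at an unadjusted p under 0.05, all higher. Their median of 0.26 became 0.08 with high cuff pressure replicate 3 left out. With library totals alone it was -0.12, where the median of all tested genes was -0.40. EIF3B, a core subunit of the eIF3 complex, came closest at 1.00 ± 0.24 (adjusted p = 0.053). Of 11 genes of RNA polymerase I, which makes ribosomal RNA, 0 passed by edgeR, 4 had an unadjusted p under 0.05 in either direction, and the median was 0.03. TAF1A, of its promoter factor, had -1.11 ± 0.27 and POLR1G, a polymerase subunit, 2.01 ± 0.52. Of 9 genes of the integrated stress response, 0 passed by edgeR and 0 had an unadjusted p under 0.05, with a median of -0.06. The 7 calls of these lists went to 0 without any single control replicate or without high cuff pressure replicate 2. They went to 1 without high cuff pressure replicate 3, to 23 without high cuff pressure replicate 1 and to 22 by DESeq2. Calls over all genes, in either direction, also changed, from 725 to 76, 0 and 0 without control replicates 1, 2 and 3. They came to 2623, 4 and 302 without high cuff pressure replicates 1, 2 and 3, and to 2557 by DESeq2.

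Other messages with the same pyrimidine tract at their start had a median near 0. The list held 18 names, and 10 entries were tested. These include 2 entries of TPT1, with log2 fold changes of 2.21 and -0.29. Of the 10 tested entries, 0 passed by edgeR, and the median fold change was -0.05 with 5 on each side of 0. An unadjusted p under 0.05 was seen for 1, in the lower direction, against 13.6% of all tested genes. That gene was EIF3E, at 117, 163 and 127 CPM in high cuff pressure replicates 1 to 3 against 249, 162 and 222 CPM (-0.64 ± 0.25 SE, adjusted p = 0.14 by edgeR), with control replicate 2 level with high cuff pressure replicate 2. NAP1L1, a histone chaperone, had -0.43 ± 0.22. The less abundant of 2 entries of TPT1, the translationally controlled tumour protein, had 205 CPM in the second high cuff pressure library and 11.2 to 25.9 CPM elsewhere, and its fold change of 2.21 ± 1.02 became -0.21 without that library. The difference between this list and the ribosomal proteins was not tested.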

How the data were processed

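The members and gene lists were chosen with earlier results of these data known. The 6 samples were grouped by their library names in the labels. The authors deposited raw counts per gene and FPKM (per the file headers), and each FPKM equals the count over a model length and the library total. Deposited tables also hold the authors' p-values and q-values per gene and, for pathways, a rich factor (a ratio). HISAT2 2.0.4, StringTie 1.3.3b and edgeR are listed in the submitters' processing notes. Build, annotation, strand and counting options: not given in the sources used here.

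Counts of all genes were fitted in edgeR 4.0.16 (R 4.3.3; filterByExpr, TMM, robust glmQLFit, glmQLFTest), with Benjamini-Hochberg adjustment over 13724 genes and a threshold of 0.05; the script was tested on simulated data. Standard errors are the log2 fold change over the square root of F. CPM use TMM library sizes. A library at 0 counts allows up to 3 counts (0.193 to 0.353 CPM); intervals are 95% and exact, for counting error only. Alternatives were DESeq2 1.42.0, limma 3.58.1 (voom, and log2 of FPKM plus 1 or 0.1), other scalings and filters, a replicate block, removal of the length trend or of mitochondrial genes, each library left out, and, chosen after seeing the data, summed entries of the same protein. Within each group, every pair of libraries differed beyond sampling noise (chi-square 60.0 to 146 per degree of freedom).

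Named members were the 5 highest and 5 lowest by fold change and by FPKM and both genes of each paralogue pair; lists give up to 3 genes with the smallest p. Some genes this rule gives are not reported here. The reference gene table matched 0 gene identifiers, so names and positions are the deposited ones, and sequences were not used here.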

Additional observations from a re-analysis of the deposited data

How the results depend on the processing

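Alternatives numbered 18. Leaving out each library gave 0 to 8 members higher, DESeq2 gave 9 and every other alternative gave 0. Members lower numbered 0 under every alternative run. The median of the members ran from 0.365 to 0.837 when a library was left out. On log2 FPKM, scaled by library totals, it was 0.141 and 0.139 with pseudocounts of 0.1 and 1 (large subunit 0.115 and 0.115), with all genes at -0.411 and -0.351. The difference in share, 0.279 percentage points, became 0.844 without mitochondrially encoded genes, 0.728 on TMM library sizes and 0.059 to 0.585 when a library was left out.

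Genes of the translation lists higher numbered 7, 22 by DESeq2, 0 with the replicate block and 0 to 23 when a library was left out; those lower numbered 0, 2 by DESeq2, 6 with library totals, 8 and 9 on FPKM (pseudocounts 0.1 and 1) and 0 to 4 when a library was left out. Same-numbered libraries of the 2 groups correlated at -0.301, -0.223 and -0.255, and no sample correlated best with its own number. With 3 libraries per group, these values cannot decide whether the numbers pair the samples. Medians of the lists, with library totals and as the range when a library was left out, were -0.443 and -0.217 to 0.159 (pyrimidine tract), -0.017 and 0.248 to 0.496 (biogenesis), -0.354 and -0.152 to 0.146 (polymerase I), -0.124 and 0.084 to 0.327 (initiation), -0.277 and 0.082 to 0.293 (mTORC1 and MYC), and -0.447 and -0.344 to 0.096 (stress response), beside -0.404 for all genes with library totals. With the block 0 members passed and their median was 0.537. Over all genes, 244 were called with the block and 0 to 2623 when a library was left out, against 725 in the main fit.

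With library totals, FPKM + 0.1 and FPKM + 1, in that order, log2 fold changes turned below 0 for RPL37 (-0.225, -0.284, -0.283), RPL22 (-0.146, -0.165, -0.161), RPL19 (-0.141, -0.217, -0.155), RPL10 (-0.077, -0.116, -0.116), RPL26L1 (-0.033, -0.056, -0.055), RPS4X (-0.010, -0.052, -0.052) and ASNS (-0.009, -0.002, -0.002). The length trend removed gave RPL37 -0.068 and RPL22 -0.072. Without high cuff pressure replicate 2, RPL37 was -0.130, RPL22 -0.164 and TPT1 -0.213 (highest with a library left out 0.458, 0.584 and 2.720). RPL22 was -0.021 without control replicate 2. Without control replicate 1, RPS7 on chromosome 8 was 0.862, RPL26 0.240 and ATF3 0.297 (lowest -1.623, -0.249 and -1.821). RPL26 was 0.213 with high cuff pressure replicate 1 left out. The cause was not tested.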
